A study of Mus musculus with 5 samples.

Results

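Insulin, glucagon, somatostatin and pancreatic polypeptide are all made as inactive prohormones, and 5 genes of the machinery that cuts and trims them were followed across the cell classes of the mouse islet: Pcsk1, Pcsk2, Cpe, Pcsk1n and Scg5. The rule lists them by name, as the convertases, carboxypeptidase E and the convertases' binding proteins, out of 6626 genes that could be matched between every library. The data are 4687 single cells, obtained by dissociating isolated islets of C57BL/6 mice. Polyadenylated RNA was captured by inDrop, which encloses each cell in a droplet and labels its transcripts with unique molecular identifiers (UMIs). The labels give 3 states without further treatment: non-pregnant (1 library), pregnant (pregnant 1 and pregnant 2) and postpartum (postpartum 1 and postpartum 2). The labels name neither age, nor day of pregnancy or after birth, nor how many mice a library holds, so p-values measure only the spread between these libraries, which may be technical.

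Prohormones are cut in the secretory granule after pairs of basic residues. Pcsk1 encodes prohormone convertase 1/3 and Pcsk2 encodes prohormone convertase 2, the endoproteases that make these cuts. Beta cells use both to release insulin and C-peptide from proinsulin, and alpha cells use prohormone convertase 2 to release glucagon from proglucagon. Carboxypeptidase E, the product of Cpe, then removes the basic residues left at the cut end. Pcsk1n encodes proSAAS, a precursor that gives rise to an inhibitor of prohormone convertase 1/3. Scg5 encodes the 7B2 protein, which prohormone convertase 2 needs to become active.

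In the GRCm38 build (GENCODE M21) Pcsk1 (ENSMUSG00000021587.5) lies on chromosome 13 from 75089826 to 75134861, plus strand. Pcsk2 (ENSMUSG00000027419.9) lies on chromosome 2 from 143546156 to 143816285, plus strand, and overlaps the antisense genes Pcsk2os1 and Pcsk2os2. Scg5 (ENSMUSG00000023236.7) lies on the same chromosome from 113776362 to 113829121, minus strand. Cpe (ENSMUSG00000037852.8) lies on chromosome 8 from 64592542 to 64693054, minus strand. Pcsk1n (ENSMUSG00000039278.10) lies on chromosome X from 7919822 to 7924410, plus strand, and overlaps Eras on the other strand. No label says whether the counting used strand, so reads of Pcsk2 and Pcsk1n cannot be told apart from those of their antisense neighbours.

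The promoters of both convertases are shown because these were the members called between cell classes by limma, Pcsk1 with all libraries and Pcsk2 without pregnant 2. Each window runs from 250 bases before to 50 after the gene start in RefSeq (GRCm38.p6), and 4 of the 5 genes had a window there; Cpe did not. In the Pcsk1 window, chr13:75089607-75089906 on the plus strand, the capitals mark the cAMP response element TGACGTCA at position -78 from the start. In the Pcsk2 window, chr2:143545883-143546182 on the plus strand, they mark 7 copies of the GC box GGGCGG, some of which overlap.
Pcsk1: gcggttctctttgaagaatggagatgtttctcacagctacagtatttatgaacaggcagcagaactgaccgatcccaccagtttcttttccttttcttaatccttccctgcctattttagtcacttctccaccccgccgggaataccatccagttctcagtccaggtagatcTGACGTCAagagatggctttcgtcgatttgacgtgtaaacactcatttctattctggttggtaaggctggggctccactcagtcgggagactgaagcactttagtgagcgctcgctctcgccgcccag
Pcsk2: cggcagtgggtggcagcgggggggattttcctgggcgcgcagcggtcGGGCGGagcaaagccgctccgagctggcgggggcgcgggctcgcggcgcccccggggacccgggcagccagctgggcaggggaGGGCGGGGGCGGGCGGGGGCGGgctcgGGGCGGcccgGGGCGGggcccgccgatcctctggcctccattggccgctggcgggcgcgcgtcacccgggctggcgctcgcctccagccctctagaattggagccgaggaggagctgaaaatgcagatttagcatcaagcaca
Both motifs were searched on both strands. TGACGTCA was in 1.79% of 32851 such windows. GGGCGG was in 35.7% of them and occurred 7 or more times in 0.627%. TGACGTCA was found in no other window of the family. GGGCGG was in all 4 windows, with 1 copy each in Pcsk1n, Scg5 and Pcsk1. The Pcsk1 copy, on the minus strand at position 42, is not marked above. A match is a string of letters and not a measured binding site.

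Each cell was put in a class by the largest of its Ins1 plus Ins2, Gcg, Sst and Ppy counts. This gave 3872 insulin-led, 560 glucagon-led, 122 somatostatin-led and 106 Ppy-led cells, while 11 cells with a tie and 16 without any of these hormones stayed unclassed. Insulin-led cells numbered 680 in the non-pregnant library, 1773 and 121 in pregnant 1 and 2, and 402 and 896 in postpartum 1 and 2. Glucagon-led cells numbered 94, 141, 23, 123 and 179 in that order. Marker sums are given in UMIs per 1000000 non-hormone UMIs, for the libraries other than pregnant 2. The 10 beta cell markers, of which Iapp supplied most UMIs, summed to between 97531 and 218904 in insulin-led cells and to between 9099 and 15161 in glucagon-led cells. In somatostatin-led cells that sum lay between 13726 and 69484. The 7 measured alpha cell markers summed to between 21734 and 68431 in glucagon-led cells and between 1703 and 3195 in insulin-led cells. Somatostatin-led cells of postpartum 1 (15 cells) had no UMI of the 3 measured delta cell markers, Rbp4 and Hhex among them.

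The libraries differed in ways that bear on every comparison of states. The median cell held 2553 UMIs in the non-pregnant library, 539 in pregnant 1, 89 in pregnant 2, 236 in postpartum 1 and 572.5 in postpartum 2. The non-pregnant file alone is on a linear scale and lists 40930 features against 6695 in the others, so the non-pregnant state cannot be told apart from how that file was made. Pregnant 2 carried little information on the family: its 24 Pcsk1 UMIs came from 4 of 164 cells, its 82 Pcsk2 UMIs from 7 cells, its 15 Cpe UMIs from 3 and its 21 Pcsk1n UMIs from 2, with 0 for Scg5. Up to 24 UMIs of 1 gene there sat in 1 cell, and it is not known whether each was a separate molecule. Results are therefore given with and without pregnant 2.

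Levels are UMIs per 1000000 non-hormone UMIs, averaged over the cells of a class in a library; 95% intervals are exact and, like the limits at a count of 0, cover counting error only. Fewer molecules per cell and a larger share of other transcripts cannot be told apart on this scale. Tests used limma on log2 of the level plus 100, with Benjamini-Hochberg adjustment over all genes tested and a threshold of 0.05. Log2 differences are on that scale and understate changes of low genes.

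**Figure D1:**
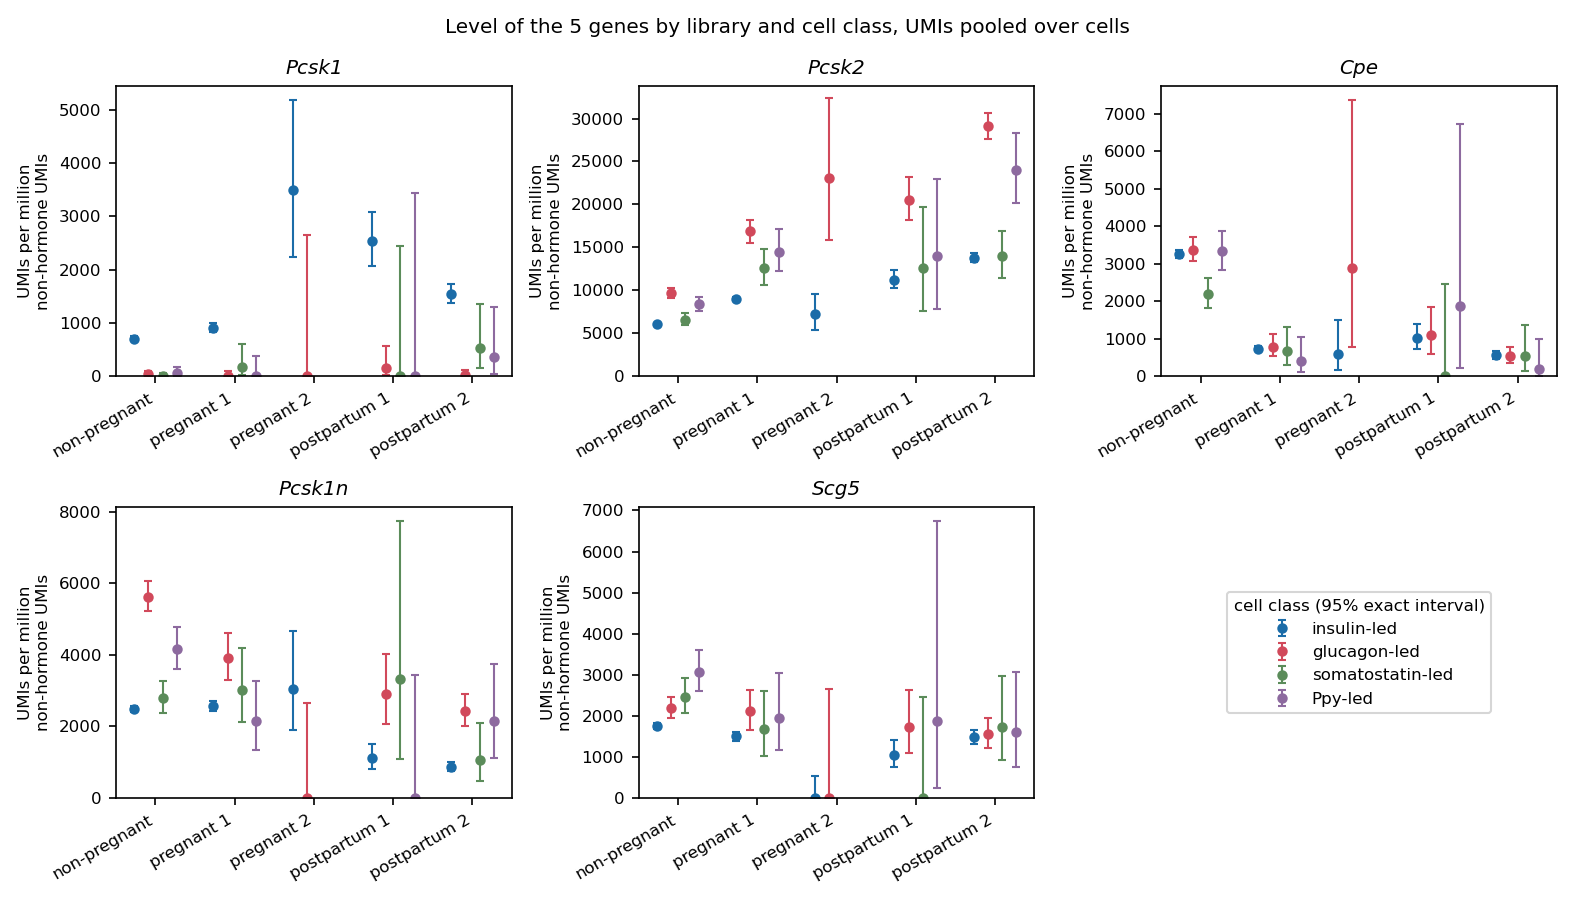
UMIs per 1000000 non-hormone UMIs (vertical axis, linear) of each gene, pooled over the cells of a class, by library (horizontal axis); colours are cell classes and bars are 95% exact intervals. Pcsk1 stands above the glucagon-led cells in insulin-led cells of every library, Pcsk2 is higher in glucagon-led than in insulin-led cells, and Cpe in insulin-led cells is highest in the non-pregnant library.

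With all libraries, Pcsk1 was the only member that limma called between cell classes. In insulin-led cells its mean level was 671 in the non-pregnant library, 915 in pregnant 1, 3276 in pregnant 2, 2394 in postpartum 1 and 1742 in postpartum 2. In glucagon-led cells it was 32.6, 0, 0, 203 and 16.9, from 5, 0, 0, 2 and 1 UMIs. Every insulin-led value lay above every glucagon-led value. Pooled over cells, the level was 17.2 times higher in insulin-led cells of the non-pregnant library (interval 7.33 to 53.0), at least 11.1 times higher in pregnant 1 against the limit of 3 counts per class, 16.1 times higher in postpartum 1 (4.35 to 135) and 75.1 times higher in postpartum 2 (13.4 to 2976). In pregnant 2 the 0 UMIs of the glucagon-led class allow no more than the statement that the ratio was at least 1.61.

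Across the 18 mean levels of a class in a library, insulin-led cells exceeded glucagon-led cells in Pcsk1 by 3.60 ± 0.56 (log2, SE), with a limma adjusted p of 0.000126. Pcsk1 was 1 of 5 members called, against 0.709% of 2398 genes tested. The same gene was higher than in somatostatin-led cells by 2.85 ± 0.61 (adjusted p = 0.00926 by limma; 1.13% of genes called) and than in Ppy-led cells by 3.43 ± 0.61 (adjusted p = 0.0012 by limma; 1% of genes called). In each of these comparisons it was the only member called with all libraries. By edgeR 5.53%, 3.07% and 3.03% of genes were called in these comparisons and by DESeq2 1.77%, 2.04% and 2.99%; Pcsk1 was the 1 member called by each. Against somatostatin-led cells the limma call was lost when pregnant 1, postpartum 1 or the non-pregnant library was left out.

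Somatostatin-led cells had 0 Pcsk1 UMIs in the non-pregnant library, 2 in pregnant 1, 0 in postpartum 1 and 4 in postpartum 2. Ppy-led cells had 3, 0, 0 and 2. The deepest of these zeros, the 39 somatostatin-led cells of the non-pregnant library, allows a level of up to 55.1, and the insulin-led level was at least 12.7 times higher. The zeros of postpartum 1 allow up to 1995 in somatostatin-led and 2804 in Ppy-led cells, close to or above the pooled level of its insulin-led cells, 2542, so a difference was hardly detectable there. Somatostatin-led cells of postpartum 2 had the highest level outside the insulin-led class, 786 from 4 UMIs in 3 cells.

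Some barcodes carried UMIs of several hormones. When a class was limited to cells whose leading hormone held at least 80% of the 4 hormone sums, the Pcsk1 count fell to 0 in Ppy-led cells of the non-pregnant library, in glucagon-led cells of postpartum 1 and 2 and in somatostatin-led cells of postpartum 2. The lost UMIs came from 1 cell in each of these groups but the last. There they came from 3 cells, and 10 of 25 cells were kept. The Pcsk1 count stayed above 0 in other groups of cells: 3 of 5 Pcsk1 UMIs were kept in glucagon-led cells of the non-pregnant library, 1 of 2 in somatostatin-led cells of pregnant 1 and 1 of 2 in Ppy-led cells of postpartum 2. Within insulin-led cells the pooled Pcsk1 level also rose with the purity of the hormone signal. In the non-pregnant library it was 399 in cells with 50 to 80% insulin, 571 at 80 to 95% and 877 above that. The same steps were 560, 867 and 1010 in pregnant 1 and 424, 1050 and 1673 in postpartum 2. In postpartum 1 they were 559, 3364 and 2617, but the lower bins rest on 1 UMI in 16 cells and 4 UMIs in 14. Between the same outer bins Pcsk2 went from 4766 to 6501 in the non-pregnant library, from 9640 to 9982 in pregnant 1 and from 13257 to 13785 in postpartum 2, a smaller ratio than that of Pcsk1 in each.

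**Figure D2:**
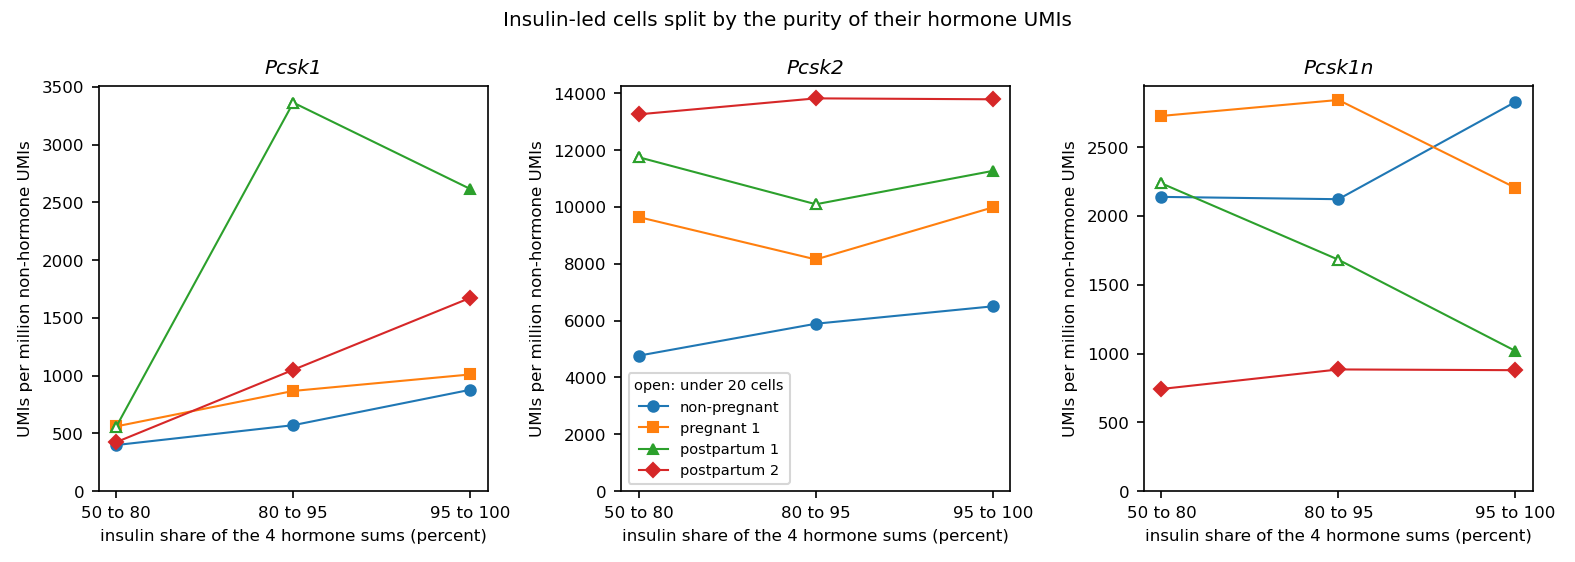
Pooled level (vertical axis, UMIs per 1000000 non-hormone UMIs) of 3 genes in insulin-led cells split by the insulin share of the 4 hormone sums (horizontal axis, percent); each line is a library, pregnant 2 is left out and open symbols are bins of under 20 cells. Pcsk1 climbs from 399, 560 and 424 to 877, 1010 and 1673 in the non-pregnant, pregnant 1 and postpartum 2 libraries, while Pcsk2 goes from 4766, 9640 and 13257 to 6501, 9982 and 13785.

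Cells with markers of other cell types were read for comparison. They had at least 3 UMIs of endothelial, macrophage or acinar markers making up at least 1% of their UMIs. Whether such cells make the convertases themselves was not tested. The 43 endothelial-marker cells (median 439 UMIs per cell) had 0 Pcsk1 and 12 Pcsk2 UMIs, a pooled Pcsk2 level of 450. The 43 macrophage-marker cells (median 377) had 8 Pcsk1 and 33 Pcsk2 UMIs, pooled levels of 519 and 2140. The 4 hormones of the class rule made up 4.63% and 9.24% of the UMIs of these cells, and by that rule 40 and 33 of them were classed as insulin-led. In the 5 macrophage-marker cells of postpartum 1 that hormone share was 33.2%, and they held 3 of the 8 Pcsk1 UMIs. Pcsk2 levels of all endocrine classes in the libraries other than pregnant 2 were above both pooled values. The pooled Pcsk1 level of insulin-led cells was lowest in the non-pregnant library, at 701. The 3 macrophage-marker cells there had 0 Pcsk1 UMIs in 4662 non-hormone UMIs, which leaves room for a level close to 701. Macrophage-marker cells stood at 545, 4043 and 450 in pregnant 1, postpartum 1 and postpartum 2, from 3, 3 and 2 UMIs. The pooled insulin-led levels there were 910, 2542 and 1546, so in postpartum 1 the macrophage-marker value was the higher.

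Pcsk2 was found in every class, and outside pregnant 2 its level was higher in glucagon-led than in insulin-led cells. Its mean level in glucagon-led cells was 9604 in the non-pregnant library, 16955 in pregnant 1, 11909 in pregnant 2, 19322 in postpartum 1 and 27751 in postpartum 2. In insulin-led cells it was 6033, 8856, 11904, 11336 and 14200. The glucagon-led value was the higher by 1.59, 1.91, 1.70 and 1.95 times outside pregnant 2. In pregnant 2 both means were alike (1.00 times), from 3 glucagon-led and 4 insulin-led cells with a Pcsk2 UMI. Pooled over cells, the ratio there was 3.18 (1.97 to 5.05), so it depended on the averaging. With all libraries the difference of insulin-led from glucagon-led cells was -0.66 ± 0.20 (log2, SE) and was not called (limma adjusted p = 0.149). Without pregnant 2 it was -0.83 ± 0.12 and was called (limma adjusted p = 4.5e-06; 1.06% of 2459 genes called).

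Somatostatin-led cells had Pcsk2 levels of 6126, 12114, 13262 and 12813, and Ppy-led cells 8357, 17404, 12126 and 21058, in the non-pregnant, pregnant 1, postpartum 1 and postpartum 2 libraries. Without pregnant 2, which had fewer than 10 cells of either class, Pcsk2 was higher in glucagon-led than in somatostatin-led cells by 0.69 ± 0.12 (limma adjusted p = 0.00018; 1.14% of genes called) and lower in insulin-led than in Ppy-led cells, at -0.52 ± 0.12 (limma adjusted p = 0.00801; 1.75% of genes called). With all libraries these differences were 0.61 ± 0.22 (0.917% of genes called) and -0.44 ± 0.22, and neither was called (limma adjusted p = 0.276 and 0.384). Insulin-led and somatostatin-led cells differed by -0.14 ± 0.12 without pregnant 2, which was not called (limma adjusted p = 0.684; 1.46% of genes called). Between glucagon-led and somatostatin-led cells edgeR called 0 members (1.51% of genes called) and DESeq2 called 1 (0.65%). By edgeR and DESeq2, in which the median gene of the contrasts with somatostatin-led and Ppy-led cells stood at 0.53 and 0.62 and at 0.79 and 0.85 (log2), insulin-led cells came out higher in Pcsk2 than somatostatin-led and Ppy-led cells, so the order of these classes depends on the fit. The higher value of glucagon-led cells over insulin-led cells held its direction in all 22 alternatives.

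The share of Pcsk1 in the UMIs of both convertases needs no denominator from other genes. It was 10.4% (95% Clopper-Pearson interval 9.70 to 11.1) in insulin-led cells of the non-pregnant library, and in pregnant 1 it was 9.22% (8.44 to 10.04). It was 32.4% (22.0 to 44.3) in the 74 UMIs of pregnant 2, and the postpartum libraries stood at 18.5% (15.3 to 22.0) and 10.1% (9.04 to 11.2). In glucagon-led cells it was 0.421%, 0%, 0%, 0.760% and 0.0707%, with upper limits of 0.979%, 0.596%, 10.9%, 2.72% and 0.393%. The intervals of insulin-led and glucagon-led cells did not overlap in any library. In pregnant 2 they rest on few cells, with 24 Pcsk1 UMIs in 4 cells and 12 of them in 1. They treat UMIs as independent and are too narrow there. The insulin-led interval of postpartum 1 overlapped those of somatostatin-led (0 to 17.6) and Ppy-led cells (0 to 21.8). That of postpartum 2 overlapped that of somatostatin-led cells (1.01 to 9.13). Among insulin-led cells, the intervals of both postpartum libraries did not overlap each other, whereas those of the non-pregnant, pregnant 1 and postpartum 2 libraries did. The share counts transcripts and is not a ratio of protein.

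**Figure D3:**
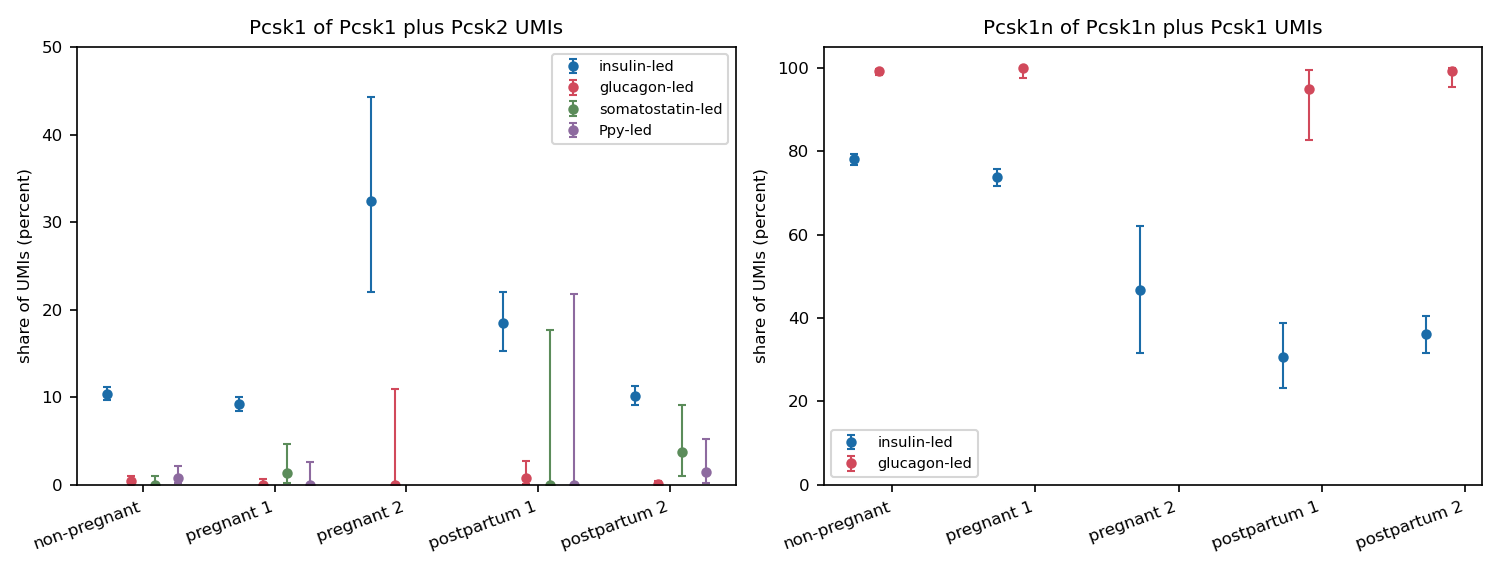
Left, share of Pcsk1 in Pcsk1 plus Pcsk2 UMIs (percent) by library and cell class; right, share of Pcsk1n in Pcsk1n plus Pcsk1 UMIs in insulin-led and glucagon-led cells. Points are pooled UMIs with 95% exact intervals, for at least 10 UMIs. Insulin-led cells stand above the glucagon-led cells on the left in every library. On the right their share is 78.0% and 73.8% in the non-pregnant and pregnant 1 libraries and 30.6% and 36.0% in the postpartum ones. In pregnant 2 it is 46.7% (31.7 to 62.1), which overlaps both postpartum intervals.

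Among the partner proteins of the convertases, Pcsk1n tended to the glucagon-led side. Its mean level there was 5664 in the non-pregnant library, 4034 in pregnant 1, 0 in pregnant 2, 2943 in postpartum 1 and 2400 in postpartum 2, against 2534, 2694, 2034, 1135 and 827 in insulin-led cells. Glucagon-led cells were higher in 4 of 5 libraries, by 1.52 to 2.79 times in pooled level; the 0 of pregnant 2 allows up to 2165. Insulin-led minus glucagon-led cells gave -0.00 ± 0.72 in all libraries and -1.11 ± 0.51 without pregnant 2 and was called in neither (limma adjusted p = 1.00 and 0.874).

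Scg5 was called in no comparison of classes. Its mean level in glucagon-led cells was 2096, 2003, 0, 1690 and 1715 in library order and in insulin-led cells 1711, 1546, 0, 1078 and 1380. It was the higher in glucagon-led cells of all 4 libraries that detected it, by 1.23 to 1.57 times in mean level. Pooled over cells the ratio ran from 1.05 to 1.66. Its interval included 1 in postpartum 1 (0.943 to 2.86) and postpartum 2 (0.804 to 1.36). The tested difference of insulin-led from glucagon-led cells was -0.31 ± 0.60 (limma adjusted p = 1.00). The Scg5 share of Scg5 plus Pcsk2 UMIs in insulin-led cells was 22.5% (21.6 to 23.4) in the non-pregnant library, 14.3% (13.4 to 15.3) in pregnant 1, and for postpartum 1 and 2 it was 8.49% (6.16 to 11.3) and 9.64% (8.60 to 10.8). It was 0 of 50 UMIs in pregnant 2, all from 4 cells, with an upper limit of 7.11%. In glucagon-led cells the share was 18.5% in the non-pregnant library, 11.1% in pregnant 1, and 7.77% and 5.04% in postpartum 1 and 2. Somatostatin-led and Ppy-led cells also had their highest share in the non-pregnant library, 27.2% and 26.7%. A lower share outside that library was thus not particular to insulin-led cells.

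Cpe was called in no comparison of classes, and its level was highest in the non-pregnant library. Its mean level in insulin-led cells was 3155 in the non-pregnant library against 767, 870, 996 and 633 in pregnant 1, pregnant 2, postpartum 1 and postpartum 2. In glucagon-led cells it was 3179 against 757, 2201, 1187 and 831. The non-pregnant value was thus the highest in both classes, and outside pregnant 2 these 2 classes of a library lay within 1.31 times of each other. In the non-pregnant library Cpe was at 2221 in somatostatin-led cells, below insulin-led cells by a pooled ratio of 1.49 (1.24 to 1.80), and at 3485 in Ppy-led cells. In the other libraries those classes held 0 to 8 Cpe UMIs each. Insulin-led minus glucagon-led cells gave -0.36 ± 0.62 (limma adjusted p = 1.00).

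In insulin-led cells the states were compared with 1, 2 and 2 libraries. The errors of these limma fits come from a trend over all genes (prior degrees of freedom infinite), since only 2 residual degrees of freedom remain. Without pregnant 2 only 1 remains, from the postpartum pair, and pregnant 1 and the non-pregnant library, each alone in its group, are assumed to vary like that pair. With all libraries Pcsk2 was higher postpartum than in the non-pregnant library by 1.06 ± 0.21 (limma adjusted p = 0.000288) and was the only member called, against 0.318% of 2204 genes. No member was called between pregnant and non-pregnant or between postpartum and pregnant libraries, where 0.136% of genes were called each time. At an unadjusted p under 0.05 these limma comparisons held 1 and 0 members, edgeR 0 and 1, and DESeq2 0 and 0. The share of all genes under that unadjusted threshold is not given, so these counts are not a result about the members. Neither edgeR nor DESeq2 called a member in any contrast of states with all libraries; edgeR called 0.0151% of genes and DESeq2 0.0605% in postpartum against non-pregnant, 0% and 0.0302% in pregnant against non-pregnant, and both 0% in postpartum against pregnant libraries. The median gene moved by -0.58 in pregnant against non-pregnant and by 0.55 in postpartum against pregnant, shifts that were 0.02 and -0.03 without pregnant 2.

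Without pregnant 2, Pcsk1n was lower postpartum than in pregnant 1 by -1.39 ± 0.36 (limma adjusted p = 0.00916) and lower than in the non-pregnant library by -1.30 ± 0.36 (limma adjusted p = 0.00882). Both postpartum values, 1135 and 827, lay below those of the non-pregnant library and pregnant 1, 2534 and 2694. They also lay below the 2034 of pregnant 2, but there 20 of 21 Pcsk1n UMIs sat in 1 cell. Pcsk1n was 1 of 2 members called between postpartum and pregnant, against 2.66% of 2446 genes, and 1 of 4 between postpartum and non-pregnant, against 6.09%. The direction was the same with every denominator, although the call between postpartum and pregnant 1 was not kept by edgeR (adjusted p = 0.111; 1.75% of genes called), with UMIs pooled over cells (0.0537 by limma) or in the purer cells (0.143 by limma). Markers of other cell types differed between these libraries too: in insulin-led cells the 10 measured acinar markers summed to 661 in the non-pregnant library, 7.62 in pregnant 1, 6254 in pregnant 2 and 2542 and 1922 in postpartum 1 and 2, and the 7 measured macrophage markers to 577, 684, 145, 788 and 1366. With all libraries, the Pcsk1n difference of postpartum from pregnant was -1.19. It was -1.16 after removal of cells with at least 3 endothelial, macrophage or acinar marker UMIs making up at least 1% of their UMIs. Neither was called. Cells with fewer marker UMIs stayed in, and the removal was not run without pregnant 2.

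The balance of Pcsk1n and Pcsk1 moves with either gene and is free of a denominator from other genes. Pcsk1n made up 78.0% (76.6 to 79.4) of the UMIs of this pair in insulin-led cells of the non-pregnant library, 73.8% (71.8 to 75.8) in pregnant 1, 46.7% (31.7 to 62.1) in pregnant 2, and for postpartum 1 and 2 it made up 30.6% (23.2 to 38.8) and 36.0% (31.7 to 40.6). The postpartum intervals did not reach those of the non-pregnant and pregnant 1 libraries but overlapped that of pregnant 2. In pregnant 2, 20 of the 21 Pcsk1n UMIs sat in 1 cell, so its interval, which treats UMIs as independent, is too narrow. With 2 libraries against 2, no permutation test can give a p under 0.333. In the purer cells the shares were 77.2%, 73.3%, 46.7%, 28.3% and 35.3%.

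Pcsk2 was the other member called between postpartum and pregnant 1, at 0.51 ± 0.14 without pregnant 2 (limma adjusted p = 0.0177). The call depended on the denominator, which leaves out the hormones. Non-hormone UMIs of shared genes were 55103 of 134957 in postpartum 1 and 257036 of 710529 in postpartum 2, against 586094 of 1136444 in pregnant 1. As a share of all UMIs of insulin-led cells Pcsk2 was 0.307% in the non-pregnant library, 0.410% and 0.417% in pregnant 1 and 2 and 0.404% and 0.428% in postpartum 1 and 2. With hormones in the denominator the difference between postpartum and pregnant 1 was -0.05 (limma adjusted p = 0.961), and that between postpartum and non-pregnant was 0.35 (limma adjusted p = 0.572).

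Pcsk1 was higher postpartum than in the non-pregnant library by 1.47 ± 0.39 without pregnant 2 (limma adjusted p = 0.00501), and by 0.73 with hormones in the denominator (limma adjusted p = 0.247). Its difference from pregnant 1, 1.08 ± 0.39, was not called (limma adjusted p = 0.159). With all libraries it was not called in any contrast of states, and the highest single value, 3276, was that of pregnant 2, from 4 cells. When each cell was thinned to 100 non-hormone UMIs, a Pcsk1 UMI was seen in 7.35% of 680 non-pregnant, 7.74% of 1731 pregnant 1, 23.4% of 158 postpartum 1 and 14.5% of 763 postpartum 2 insulin-led cells; 0, 42, 244 and 133 shallower cells were left out. Before thinning the shares were 45.3%, 20.3%, 20.4% and 25.2%. In thinned glucagon-led cells the share was 0% in these 4 libraries.

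Without pregnant 2, Cpe differed from the non-pregnant library by -1.86 ± 0.41 postpartum (limma adjusted p = 0.000221). Pregnant 1 against non-pregnant is then 1 library against 1, with no spread in either group, and its p-values rest on the postpartum pair and the trend. There Cpe stood at -1.91 ± 0.47 (limma adjusted p = 0.00375; 2.17% of genes called) and Pcsk2 at 0.55 ± 0.17 (limma adjusted p = 0.0457), a difference between these 2 libraries that cannot be told apart from one between the states. The Pcsk2 value missed the threshold with hormones in the denominator (0.40, limma adjusted p = 0.999). Cpe was not called between postpartum and pregnant 1 (0.05 ± 0.41, limma adjusted p = 0.990). Scg5 was called in no contrast of states with or without pregnant 2, and its difference of postpartum from pregnant turned from 1.70 ± 1.14 to -0.32 ± 0.38 when that library, with 0 Scg5 UMIs, was left out.

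**Figure D4:**
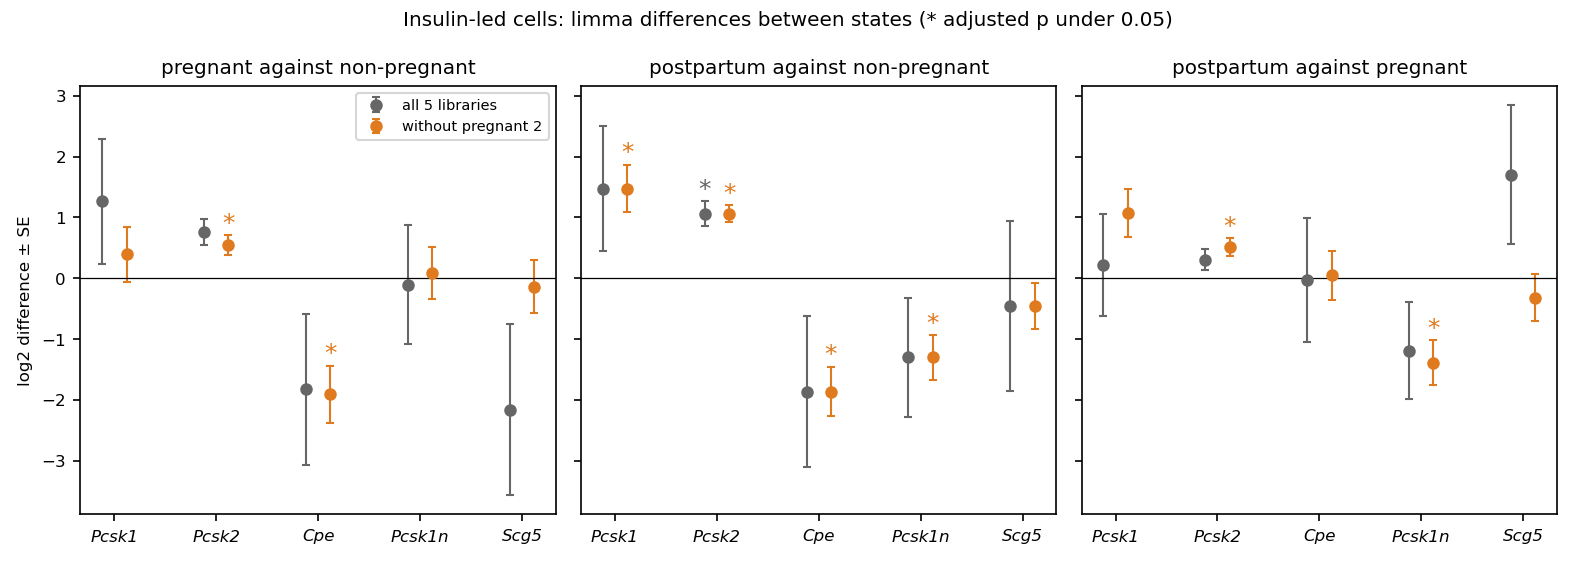
Log2 difference ± SE between states in insulin-led cells (limma, vertical axis) for each gene (horizontal axis), with all 5 libraries (grey) and without pregnant 2 (orange); a star marks an adjusted p under 0.05. With all libraries the only star is Pcsk2 in postpartum against non-pregnant (1.06); without pregnant 2 stars appear for Pcsk1, Pcsk2, Cpe and Pcsk1n, and pregnant against non-pregnant is then 1 library against 1.

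In glucagon-led cells no member was called between states by limma, with 4 members tested since Pcsk1 was under the level filter. With all libraries, 0, 1 and 0 members had an unadjusted limma p under 0.05. The contrasts are pregnant against non-pregnant, postpartum against non-pregnant and postpartum against pregnant, in that order. The share of all genes under that unadjusted threshold is not given, so these counts are not a result about the members. edgeR and DESeq2 gave 0 in each with all libraries and called no gene. By limma 0%, 0.0534% and 0.0534% of 1871 genes were called with all libraries and 0%, 0.129% and 0.0431% of 2319 without pregnant 2. Postpartum against non-pregnant without pregnant 2, Pcsk2, Cpe and Pcsk1n had the signs of insulin-led cells: 1.26 ± 0.24, -1.58 ± 0.44 and -1.06 ± 0.31 (limma adjusted p = 0.179, 0.405 and 0.409). Pregnant 1 against non-pregnant, Pcsk1n was at -0.48 in glucagon-led and at 0.09 in insulin-led cells.

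The difference between insulin-led and glucagon-led cells was also taken within each library. It was called as differing between states for 0 of 5 members by limma, with or without pregnant 2 (0% of 2110 genes called with all libraries; 0%, 0.0842% and 0.0421% of 2376 without pregnant 2), for 0 at an unadjusted p under 0.05, and for 0 by edgeR and DESeq2. For Cpe, pregnant 1 against non-pregnant, it was 0.03 ± 0.60, from -1.91 in insulin-led and -1.94 in glucagon-led cells. For Pcsk1n, postpartum against pregnant 1, it was -0.80 ± 0.48 (limma adjusted p = 0.900).

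Other enzymes that act on prohormones or in the granule were read from lists of 21 and 23 genes. Of the processing enzymes, which include furin, peptidylglycine amidating monooxygenase, carboxypeptidase D and the cathepsins, 14 were measured, and of the genes of granule acidification and ions, which include subunits of the vacuolar proton pump, 20. Between insulin-led and glucagon-led cells 0 of 11 and 0 of 17 tested genes were called by limma, where 0.709% of all genes were. Their median differences were 0.23 and 0.82 against 0.15 over all genes, and 0.22 and 0.43 against 0.09 without pregnant 2. Slc30a8, the zinc transporter of insulin granules and also a listed beta cell marker, was higher in insulin-led than in somatostatin-led cells by 2.42 ± 0.50 (limma adjusted p = 0.00698; 1.13% of genes called) and than in Ppy-led cells by 2.54 ± 0.50 (limma adjusted p = 0.0048; 1% of genes called). It was higher in glucagon-led than in somatostatin-led cells by 2.70 ± 0.50 (limma adjusted p = 0.00343; 0.917% of genes called). Atp2a2, a calcium pump of the endoplasmic reticulum, was higher in insulin-led than in Ppy-led cells by 2.61 ± 0.63 (limma adjusted p = 0.0306). Between states in insulin-led cells 0 of 12 and 0 of 18 were called with all libraries, where 0.136% to 0.318% of all genes were. Without pregnant 2, Ctsb, a lysosomal protease, was the single gene of both lists called, lower postpartum than in the non-pregnant library at -2.28 ± 0.47 (limma adjusted p = 5.4e-05; 6.09% of genes called) and than in pregnant 1 at -1.94 ± 0.47 (limma adjusted p = 0.00284; 2.66% of genes called).

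Across the 16 class and library levels of the 4 libraries other than pregnant 2, with each library's mean removed, the genes whose log2 levels were most like those of a member among 2458 were Phactr1 (Pearson r 0.92), Uggt1 (0.88) and the beta cell gene G6pc2 (0.87) for Pcsk1. For Pcsk2 they included Ptprd (0.85) and Mbnl2 (0.81). For Cpe they were Rps28 (0.94), Reep3 (0.91) and S100a11 (0.90), for Pcsk1n Atf3 (0.93), Rack1 (0.93) and Pura (0.91), and for Scg5 Gm5148 (0.97), Resp18 (0.94) and Wnk1 (0.93). Pcsk1 and Pcsk2 ran against each other (-0.66), and Cpe and Scg5 were the closest pair within the family (0.89). These are descriptions: the 16 points share 4 libraries, and the small somatostatin-led and Ppy-led classes of postpartum 1, with 0 UMIs of several genes, weigh as much as the large ones.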

How the data were processed

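Islet cells from 5 inDrop libraries were used as deposited. Partek 8.0 and Bowtie 1.1.1 are named in the submitters' processing notes, with GRCm38 and mm10 as builds; which counter, annotation or cell filter was applied is not given in the sources used here. From the values, the authors' file of non-pregnant cells is a linear signal in which every cell has 1 common sum. The other 4 deposited files are log2 values of UMIs per 1000000 of the cell plus 1, over fewer features. Whole UMI counts were recovered from the steps of each cell, and 100% of values lay within 0.1 of a whole number. A step was accepted only if every value of the cell came close to a whole number, so that share is no separate check. In 9 cells of pregnant 2 the smallest value was taken as more than 1 UMI.

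Genes were matched by symbol (6543) or synonym (83), giving 6626 shared genes; 54 stayed unmatched. Rn45s, Gm42418 and symbols turned into dates were dropped. A class entered a test with at least 10 cells and 1000 non-hormone UMIs in a library. Denominators leave out 7 hormone genes (Ins1, Ins2, Gcg, Sst, Ppy, Iapp, Pyy). No doublet caller was run, and cells with mixed hormones were handled by the alternative of at least 80% purity. Columns carry running numbers, so barcodes shared by libraries could not be counted.

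Class contrasts were fitted by limma 3.58.1 (R 4.3.3) on log2(level + 100) with class and library as terms over all libraries, and contrasts of states with the 3 groups, for genes of a mean level of at least 100, with a trended prior. Non-pregnant cells come from 1 library, so the fit lends them the variance of the pregnant and postpartum libraries, or of the postpartum pair alone when pregnant 2 is left out. edgeR 4.0.16 and DESeq2 1.42.0 on the recovered counts were alternatives, and the code was tested on simulated data. Same-numbered pregnant and postpartum libraries are not said to share a batch, and their deviations correlated by 0.048 in insulin-led and -0.044 in glucagon-led cells, so no pairing was used.

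The genes named are the 5 members, list genes that passed limma, and the 3 most alike genes per member, of which 1 is not reported here. The members, the lists and the tests were chosen with earlier results of these data known. Promoter windows are those of RefSeq.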

Additional observations from a re-analysis of the deposited data

How the results depend on the processing

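Pcsk1 was called higher in insulin-led than in glucagon-led and Ppy-led cells under all 22 alternatives (log2 differences 1.33 to 5.68 and 1.23 to 5.66), and than in somatostatin-led cells under 18 of 22 (1.06 to 4.74). Alternatives were other pseudocounts, no level filter, other denominators, pooled UMIs, edgeR, DESeq2, purer, deeper or cleaner cells, fewer classes in a fit, and each library left out; 5 that join the loss of pregnant 2 to another choice were added after seeing the data. The cause of each change below was not tested. Member counts below are to be read against the share of all genes called over the same alternatives. Apart from fits that only left out 1 library, it was 0.237% to 5.53% for insulin-led against glucagon-led, 0.917% to 3.83% against somatostatin-led, 0.542% to 3.72% against Ppy-led and 0.196% to 2.28% for glucagon-led against somatostatin-led cells. With only 1 library left out, these class shares were 0.431% to 1.06%, 0.254% to 1.46%, 0.381% to 1.75% and 0.128% to 1.14%. In insulin-led cells the share over the former alternatives was 0% to 5.86%, 0.0151% to 18.9% and 0% to 7.71% for pregnant and postpartum against non-pregnant and postpartum against pregnant, and in glucagon-led cells 0% to 2.39%, 0% to 2.29% and 0% to 0.259%. Without pregnant 1 the first and last of these contrasts called 77.3% and 83.9% of genes in insulin-led cells.

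The number of members called between insulin-led and glucagon-led cells was 1, became 2 with either other denominator or pooled UMIs and 3 in cells of at least 200 UMIs (which leave pregnant 2 out), was 2 without pregnant 2 alone or with purer cells, pooled UMIs or either denominator, and ran from 1 to 2 over libraries left out. Against somatostatin-led cells it was 1, was 0 with all UMIs of shared genes as denominator, 2 without pregnant 2 with either other denominator, and 0 to 1 over libraries left out. Against Ppy-led cells it was 1 and rose to 2 in deeper cells, with only the compared classes in the fit and without pregnant 2 with purer cells, pooled UMIs or either denominator (1 to 2 over libraries left out). Between glucagon-led and somatostatin-led cells it was 0 and became 1 by DESeq2, in purer or deeper cells, with only those classes in the fit, and without pregnant 2 with purer cells, edgeR or pooled UMIs (0 to 1 over libraries left out).

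For insulin-led cells, pregnant against non-pregnant, it was 0 and became 1 with a pseudocount of 1000, without the level filter, in deeper cells, and without pregnant 2 by edgeR, pooled UMIs or either denominator (0 to 4 over libraries left out, 4 without pregnant 1). Postpartum against non-pregnant it was 1, fell to 0 with a pseudocount of 10, either denominator, edgeR or DESeq2, rose to 4 in deeper cells and without pregnant 2 with pooled UMIs, and was 2 without pregnant 2 with purer cells, edgeR or either denominator (0 to 4 over libraries left out). Postpartum against pregnant it was 0 and became 1 in deeper cells and without pregnant 2 with either denominator (0 to 2 over libraries left out). In glucagon-led cells pooled UMIs gave 1 member in both contrasts with the non-pregnant library, and libraries left out gave 0 to 2 in pregnant against non-pregnant and 0 to 3 in postpartum against pregnant. The difference between classes ran from 0 to 2 over libraries left out in both contrasts with the pregnant group. The fit without pregnant 1 leaves pregnant 2 alone in its group, and in contrasts with that group it called a large part of all genes.

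Directions turned as follows. Between insulin-led and glucagon-led cells Cpe became 0.063 by edgeR, 0.084 by DESeq2, 0.0044 in deeper cells and 0.12 by edgeR without pregnant 2, and Pcsk1n became 0.61 with a pseudocount of 10, 0.11 pooled and 0.014 without cells of other types (-1.11 to 0.35 over libraries left out). Pcsk2 turned against somatostatin-led cells to 0.75 by edgeR, 1.06 by DESeq2 and 0.39 in purer cells, and without pregnant 2 to 0.30 in purer cells and 0.66 by edgeR (-0.14 to 0.066 over libraries left out); against Ppy-led cells it turned to 0.53 by edgeR, 0.84 by DESeq2 and 0.44 by edgeR without pregnant 2. Pregnant against non-pregnant, Pcsk2 turned to -0.054 by edgeR, and Pcsk1n to 0.17 pooled and 0.085 in deeper cells, and without pregnant 2 to 0.050 in purer cells, 0.075 by edgeR and 0.045 pooled (-0.30 to 0.085 over libraries left out). Postpartum against pregnant, with all shared UMIs and with the total of the cell as denominator, Pcsk1 turned to -0.53 and -0.39 (-0.66 to 1.08 over libraries left out) and Pcsk2 to -0.16 and -0.18, and to -0.046 with the former and no pregnant 2. Cpe turned to 0.18 pooled, 0.76 by edgeR, 0.69 by DESeq2 and 0.089 in deeper cells, and without pregnant 2 to 0.080, 0.086 and 0.030 in purer cells, by edgeR and pooled (-0.32 to 0.26 over libraries left out). Scg5 turned to -0.34 in deeper cells, and without pregnant 2 to -0.38 in purer cells, -0.14 by edgeR, -0.25 pooled and -0.77 and -0.65 with the other denominators (-0.32 to 3.72 over libraries left out).

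Counts over all genes moved widely: 17 genes differed between insulin-led and glucagon-led cells by limma, 252 by edgeR, 117 by DESeq2 and 5 with only those classes in the fit; for the contrasts with somatostatin-led cells, with Ppy-led cells and of glucagon-led with somatostatin-led cells limma called 27, 24 and 22, edgeR 140, 138 and 69 and DESeq2 135, 198 and 43. In insulin-led cells limma called 3, 7 and 3 genes in pregnant against non-pregnant, postpartum against non-pregnant and postpartum against pregnant libraries, 53, 149 and 65 without pregnant 2 and 1618, 161 and 1756 without pregnant 1. Pairing the libraries by number (replicate block) gave 1 such gene postpartum against pregnant in insulin-led cells and 2 in glucagon-led cells (1 without it), and called no member (Pcsk1n -1.19, limma adjusted p = 0.923), as without the block. In purer cells the Pcsk1 share became 0% in Ppy-led cells of the non-pregnant library, glucagon-led cells of both postpartum libraries and somatostatin-led cells of postpartum 2, and was 0.32%, 3.85% and 1.39% in glucagon-led cells of the non-pregnant library, somatostatin-led cells of pregnant 1 and Ppy-led cells of postpartum 2; the Pcsk1n and Scg5 shares of insulin-led cells stayed within their intervals under purer, deeper and cleaner cells. Depth limits the small classes most: a count of 0 in somatostatin-led cells of postpartum 1 allows a level of up to 1995.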
